A study of Mus musculus with 38 samples.

Results

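Nkx2-1, Gata6, Sox9, Sox2, Id2, Foxp1, Foxp2, Foxp4 and Etv5 are transcription factors and regulators that mark the lung lineage or the growing tips of the embryonic lung. These 9 genes were chosen by name, found by Ensembl ID in each of 3 count tables, and are 9 of the 55502 IDs listed. Their RNA was followed in 38 bulk RNA sequencing libraries of organoids, which are tumour cells grown as clusters in Matrigel with L-WRN conditioned medium. Each organoid line came from 1 mouse lung adenocarcinoma of mixed 129/B6 background. All lines carried the alleles KrasFSF-G12D, p53frt and Rosa-FSF-CreERT2, the last of which supplies a Cre recombinase switched on by 4-hydroxytamoxifen (4-OHT). Double-floxed lines also carried Foxa1flox and Foxa2flox, Foxa1-floxed lines Foxa1flox alone, and Foxa2-floxed lines Foxa2flox alone. Over 72 hours the organoids were exposed either to ethanol as the vehicle or to 4-OHT at 2 uM, and the sources used here do not say when RNA was taken.

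There were 3 double-floxed lines with 5 libraries per treatment: replicates 1 and 4 are line 1027B, 2 and 5 are line 1027D, and 3 is line 1292B. The Foxa1-floxed set had 6 libraries per treatment, 2 for each of lines 1552A, 1552B and 1552C, and the Foxa2-floxed set 4 per treatment, 2 for each of 1267B and 1526C. In a further experiment, line 1027B carried a short hairpin RNA that targets Nkx2-1 (shNKX2-1) or its scrambled control (shScramble), with 2 libraries for each hairpin under vehicle and under 4-OHT. No line lacked floxed alleles, so an effect of 4-OHT or Cre on its own and the loss of Foxa1 or Foxa2 cannot be told apart. The labels do not say whether repeat libraries of a line were separate cultures, so p-values measure the spread between these libraries, which may be partly technical.

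In lung development, Nkx2-1 and Gata6 are expressed in the respiratory endoderm, and Nkx2-1 with its Foxa partners switches on surfactant genes in alveolar cells. Sox9, Id2 and Etv5 mark the distal tips, where fibroblast growth factor (FGF) signalling maintains progenitors, while Sox2 marks the proximal airway. Foxp1, Foxp2 and Foxp4 are forkhead repressors of the lung epithelium, and Foxp1 and Foxp4 are known for restraining mucus-producing goblet cell genes in the airway.

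Library totals, in M counts, were 18.3 to 32.0 for double-floxed, 18.5 to 33.2 for single-floxed and 13.6 to 16.3 for hairpin organoids. Foxa2, a targeted gene, went from 62.5 to 191 CPM (counts scaled to the library total) with vehicle to 2.61 to 6.25 with 4-OHT in double-floxed libraries, and from 73.9 to 122 to 1.97 to 4.12 in Foxa2-floxed ones. Foxa1 went from 17.4 to 90.3 CPM to 9.18 to 18.8 in double-floxed libraries and from 41.6 to 83.1 to 14.3 to 17.9 in Foxa1-floxed ones. In the hairpin experiment Foxa2 fell in both arms, whereas Foxa1 had fitted log2 changes of -0.49 (adjusted p = 0.469) with shScramble and -0.56 (adjusted p = 0.236) with shNKX2-1. Summed over 7 epithelial marker genes, every library had 5070 to 22000 CPM, against 0.053 to 5.12 for 8 fibroblast, 0.376 to 9.16 for 7 endothelial and 3.15 to 48.5 for 8 leukocyte genes. The second shNKX2-1 4-OHT library stood apart, with 11.7% mitochondrial counts against 1.09% to 4.30% in the other 37.

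Levels of different genes were set against each other only per kb of exon, as CPM per kb in vehicle-treated organoids, averaged over the 8 lines. The length joins the exons of all annotated transcripts of a gene, and was 6.51 kb for Gata6, 13.8 for Foxp1 and 16.3 for Foxp2. Nkx2-1 (81.8 ± 23.9 CPM per kb, SD, n = 8 lines) and Id2 (71.8 ± 23.4) came first. Foxp4 (47.5 ± 11.2) and Etv5 (36.3 ± 24.0) followed, then Sox9 (15.5 ± 11.2) and Gata6 (14.1 ± 3.85). Foxp1 (5.38 ± 1.42) and Foxp2 (1.19 ± 1.42) were lowest among the genes present in all lines. Of the 7 pairs of neighbours in this order, Gata6 was above Foxp1, and Foxp1 above Foxp2, in 8 of 8 lines (exact two-sided sign-flip permutation test, Benjamini-Hochberg adjusted p = 0.0273 for each; smallest possible p = 0.00781). The other 5 pairs did not differ beyond the spread of the lines, with adjusted p of 0.0547 or more. Both orders that passed depend on the exon lengths, and which transcripts the organoids use was not tested. In CPM without the length, Gata6 was below Foxp1 in 1027D (67.6 against 83.8), 1267B (56.6 against 77.9) and 1292B (76.6 against 93.5). Foxp1 was below Foxp2 in 1552A (49.3 against 57.1 CPM). Sox2 averaged 2.97 ± 8.38 CPM per kb and was left out of the order test because it was at 0 in 5 lines.

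**Figure D1:**
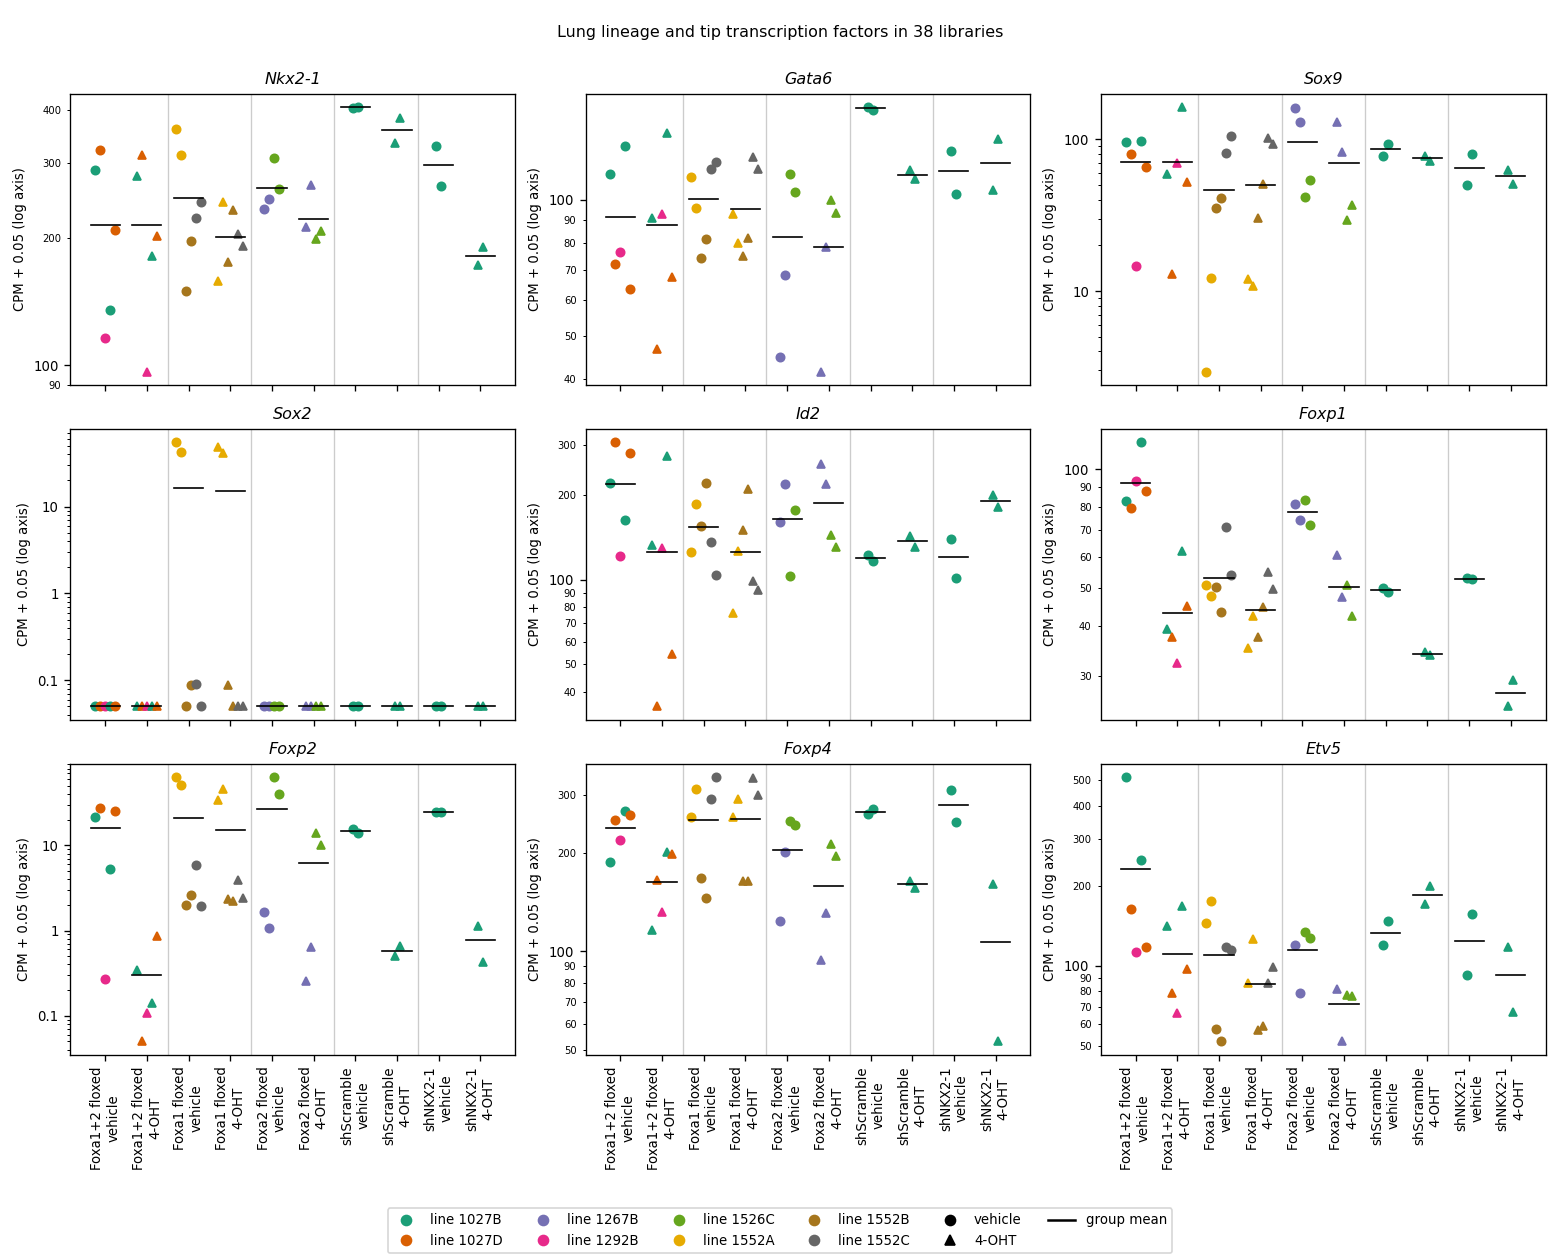
CPM + 0.05 on a log axis for each of the 9 genes in every library, by group; colours mark lines, circles vehicle, triangles 4-OHT, and black bars group means. Foxp2 spans the widest range and drops with 4-OHT in the double-floxed and hairpin groups, while Sox2 is above 1 CPM only in line 1552A.

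The lineage factor Nkx2-1 (ENSMUSG00000001496, GRCm38 chromosome 12, 56531958 to 56536908, minus strand) did not differ beyond the spread of the libraries when Foxa1 and Foxa2 were both targeted. In replicates 1 to 5 of the double-floxed organoids it measured 289, 321, 116, 135 and 208 CPM with vehicle and 279, 314, 96.6, 181 and 202 CPM with 4-OHT. The groups overlapped throughout, with line 1292B lowest under either treatment. The fitted log2 change was -0.01 ± 0.26 (SE; edgeR quasi-likelihood test, adjusted p = 0.987). In Foxa1-floxed libraries it ranged from 150 to 360 CPM (median 233) with vehicle and from 158 to 243 CPM (median 197) with 4-OHT. Those groups overlapped as well, and the line with the highest vehicle value, 1552A, had the lowest 4-OHT library. In Foxa2-floxed libraries the vehicle values were 233, 246, 308 and 261 CPM and the 4-OHT values 212, 266, 199 and 207 CPM. The fitted changes were -0.26 ± 0.16 (adjusted p = 0.561) and -0.25 ± 0.19 (adjusted p = 0.664), neither passing the threshold of 0.05.

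Gata6 (ENSMUSG00000005836), a zinc-finger factor of the endoderm, likewise did not pass in any of the 11 comparisons. With vehicle the double-floxed libraries held 114, 71.8, 76.6, 131 and 63.5 CPM, and with 4-OHT 91, 46.6, 93, 140 and 67.5 CPM. The 2 sets overlapped, and line 1027B was highest with vehicle. Fitted changes were -0.07 ± 0.17 in double-floxed, -0.08 ± 0.13 in Foxa1-floxed and -0.05 ± 0.16 in Foxa2-floxed organoids. Across the 8 vehicle lines it varied 2.17-fold, from 56.6 CPM in 1267B to 123 CPM in 1027B. Its exons share 93 bases with 1010001N08Rik, a transcript on the other strand that averaged 3.17 to 10.6 CPM per line and treatment, so without a stated strand setting a small part of either value could belong to the other.

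Foxp2 (ENSMUSG00000029563, chromosome 6, 14901349 to 15441977, plus strand), the forkhead P gene most restricted to distal epithelium, fell to near 0 after 4-OHT in double-floxed lines 1027B and 1027D, while line 1292B had little to begin with. Vehicle replicates 1 to 5 held 21.6, 27.2, 0.219, 5.27 and 25.5 CPM, and 4-OHT replicates 0.292, 0, 0.0579, 0.0899 and 0.802 CPM. Within each line, each of the 5 4-OHT libraries lay below every vehicle library, but across lines the groups overlapped because 1292B had only 4 counts with vehicle and 1 with 4-OHT. Summed over libraries, 1595 counts became 36. The fitted log2 change was -5.78 ± 0.97 (edgeR quasi-likelihood test, adjusted p = 0.0179). Foxp1 and Foxp2 were the 2 called among the 8 members tested in double-floxed organoids, where 3.90% of all 15198 genes were called. The Foxp2 call was lost without line 1027B (-5.59, adjusted p = 0.123) or 1027D (-5.45, adjusted p = 0.23) and with no replicate block for the line (adjusted p = 0.078), and was kept without 1292B. In bulk RNA, fewer cells that express a gene and less RNA per cell cannot be told apart.

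With Foxa2 alone targeted, Foxp2 fell less far. The 2 vehicle libraries of line 1267B had 1.61 and 1.02 CPM and those of 1526C 63.6 and 39.6 CPM, and with 4-OHT they had 0.205 and 0.589, and 13.9 and 10.1 CPM. Each 4-OHT library was below both vehicle libraries of its line, although the lines differed so much that the groups overlapped. The fitted change was -1.94 ± 0.35 (adjusted p = 0.0053), one of 3 calls among 8 tested members where 3.43% of 16887 genes were called, and without line 1526C it was -1.61 (adjusted p = 0.534). With no replicate block the change was -2.1 and was not called. With Foxa1 alone targeted, Foxp2 ranged from 1.87 to 62.9 CPM (median 4.18) with vehicle and from 2.16 to 46 CPM (median 3.10) with 4-OHT. These groups overlapped widely and the fitted change was -0.30 ± 0.25 (adjusted p = 0.674).

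The effects themselves were compared on counts summed per line and treatment. For Foxp2 the double-floxed change minus the Foxa1-floxed change was -5.42 ± 0.43 on the log2 scale (adjusted p = 0.00218), and minus the Foxa2-floxed change it was -3.84 ± 0.47 (adjusted p = 0.0397). Of 19085 genes, 1.54% and 0.194% were called in these comparisons. The difference from Foxa2-floxed lines was not called when any one line other than 1292B was left out (adjusted p from 0.0749 to 0.173), while its size stayed between -4.15 and -3.64. Between the 2 single-floxed genotypes 0% of genes were called by edgeR's quasi-likelihood test, with 733 genes at an unadjusted p under 0.05. For Foxp2 the Foxa1-floxed minus Foxa2-floxed difference was 1.58 ± 0.40 (unadjusted p = 0.00366, adjusted p = 0.997), and DESeq2 called no member either.

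Foxp1 (ENSMUSG00000030067, chromosome 6, 98925338 to 99522721, minus strand), a broadly expressed forkhead repressor, fell in double-floxed organoids. Its vehicle values were 82.9, 79.8, 93.5, 117 and 87.7 CPM and its 4-OHT values 39.4, 37.4, 32.3, 61.8 and 44.9 CPM. Every 4-OHT library was below every vehicle library, so this held within both sets of libraries whose titles share a number, taken here as a run (replicates 1 to 3 and replicates 4 and 5). The change was -1.11 ± 0.18 (adjusted p = 0.0155), with 4-OHT over vehicle ratios of 0.507 in 1027B, 0.491 in 1027D and 0.345 in 1292B. Leaving out any one line gave changes as far as -1.21 with adjusted p from 0.0548 to 0.231. In Foxa2-floxed organoids vehicle values of 81.7, 74.2, 83.4 and 72.2 CPM stood against 4-OHT values of 60.4, 47.3, 50.7 and 42.4 CPM, again with no overlap. That change was -0.64 ± 0.13 (adjusted p = 0.00954), or -0.53 (adjusted p = 0.507) without line 1526C and -0.63 (adjusted p = 0.392) with no replicate block. By the same edgeR test the call was also lost with counts summed per line (-0.65, adjusted p = 0.0829). It was lost too with the genotype fitted alone (-0.63, adjusted p = 0.0695) and without 4-OHT replicate 4 (-0.57, adjusted p = 0.0542).

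Foxa1-floxed organoids had Foxp1 at 43.5 to 71.1 CPM (median 50.5) with vehicle and 35.1 to 54.7 CPM (median 43.5) with 4-OHT, and 4 of 6 4-OHT libraries lay below both vehicle libraries of their line. The change of -0.27 ± 0.10 had an unadjusted p of 0.0156 and an adjusted p of 0.327. No member was called in Foxa1-floxed organoids among 9 tested by edgeR's quasi-likelihood test, 1 member had an unadjusted p under 0.05, DESeq2 called 0, and 0.0118% of all 16887 genes were called. For Foxp1 the double-floxed minus the Foxa1-floxed change was -0.94 ± 0.18 (adjusted p = 0.0453), and without any one line adjusted p was 0.0503 to 0.173. Against Foxa2-floxed lines the difference was -0.55 ± 0.20 (adjusted p = 0.45).

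Foxp4 (ENSMUSG00000023991, chromosome 17, 47867133 to 47924645, minus strand), the most abundant of the 3 forkhead P genes per kb, had lower values after 4-OHT in each double-floxed line without passing the threshold. Vehicle libraries had 187, 252, 219, 269 and 261 CPM and 4-OHT libraries 116, 165, 132, 201 and 198 CPM. The groups overlapped only through vehicle replicate 1 of line 1027B, and 4 of 5 4-OHT libraries were below every vehicle library of their line. The change was -0.55 ± 0.18 (adjusted p = 0.126), and with line and run (the number in the library titles) together as the block it was -0.57 (adjusted p = 0.0203). In Foxa2-floxed organoids 124, 201, 250 and 243 CPM stood against 93.8, 131, 212 and 196 CPM. That change of -0.41 ± 0.14 (adjusted p = 0.142) passed with the same block of line and run (-0.40, adjusted p = 0.0233). In Foxa1-floxed organoids the medians were 275 CPM under both treatments and the change was 0.00 ± 0.11.

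**Figure D2:**
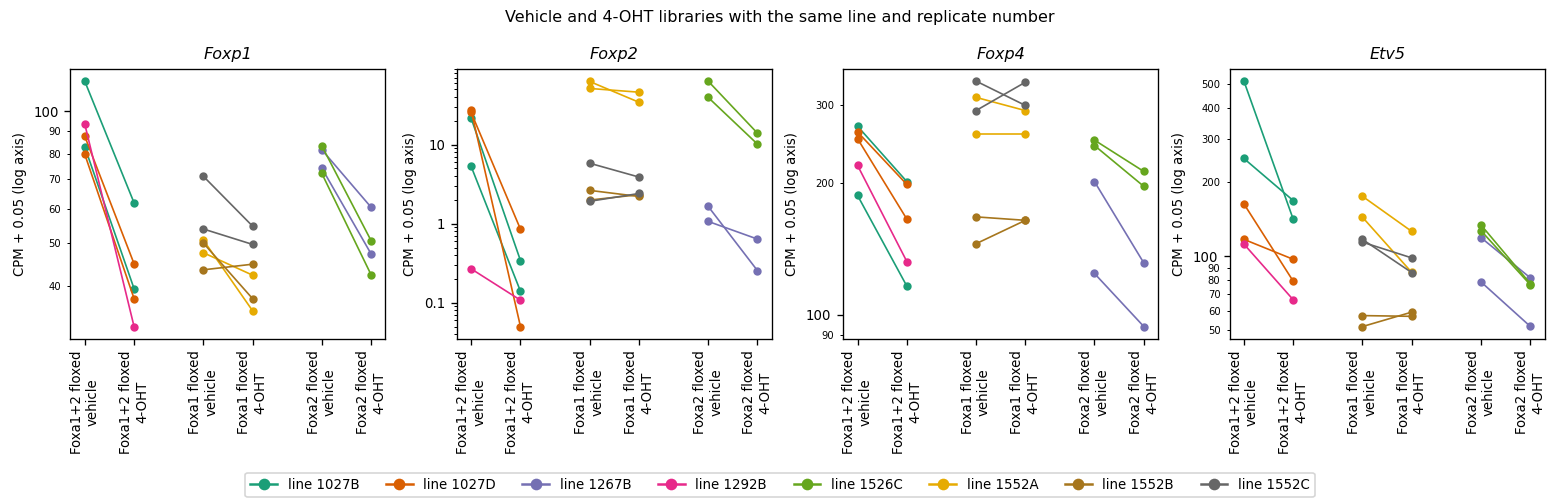
Vehicle and 4-OHT libraries that share a line and a replicate number, joined by lines, for Foxp1, Foxp2, Foxp4 and Etv5 (CPM + 0.05, log axis; colours mark lines). All 5 double-floxed and all 4 Foxa2-floxed pairs go down for each of these genes, and Foxa1-floxed pairs go both ways.

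Etv5 (ENSMUSG00000013089, chromosome 16, 22381309 to 22439719, minus strand) is an ETS factor that responds to FGF and ERK signalling at the tips and in alveolar type 2 cells. Double-floxed vehicle replicates 1 to 5 had 513, 163, 112, 249 and 117 CPM, and 4-OHT replicates 141, 79.1, 66.5, 168 and 97.1 CPM. All 5 4-OHT libraries were below every vehicle library of their line, but the lines' ranges overlapped, and the 513 CPM library of 1027B was 2.06 times its repeat. The change of -0.93 ± 0.23 missed the threshold (adjusted p = 0.06), while DESeq2 gave -0.93 with adjusted p = 0.00674. In Foxa2-floxed organoids 119, 78.7, 134 and 127 CPM went to 81.7, 51.9, 77.4 and 76.6 CPM. Etv5 fell there by 0.67 ± 0.18 on the log2 scale (adjusted p = 0.0464), and leaving out line 1526C gave -0.57 (adjusted p = 0.903). By the same edgeR test the call was also lost with counts summed per line (adjusted p = 0.173) and with the genotype fitted alone (adjusted p = 0.164). It was lost too with no replicate block, and without 4-OHT replicate 2, 3 or 4 or vehicle replicate 1, 3 or 4 (adjusted p from 0.114 to 0.155). The change stayed between -0.69 and -0.56 in these settings. Foxa1-floxed libraries had medians of 115 CPM with vehicle and 85.8 CPM with 4-OHT (range 51.8 to 175 and 57 to 126), a change of -0.28 ± 0.14 (adjusted p = 0.47).

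Promoter windows of Foxp1, Foxp4 and Etv5 are shown because these genes had lower mean levels with 4-OHT in every double-floxed and Foxa2-floxed line, though not all passed the test. The 250 bases before a start site come from the RefSeq table for GRCm38.p6, and capitals mark matches to a forkhead motif, searched on both strands as TGTTTAC, as its variant TGTTTGC and as the related form TATTTAC.
Foxp1, chr6:99520994-99521243, minus strand: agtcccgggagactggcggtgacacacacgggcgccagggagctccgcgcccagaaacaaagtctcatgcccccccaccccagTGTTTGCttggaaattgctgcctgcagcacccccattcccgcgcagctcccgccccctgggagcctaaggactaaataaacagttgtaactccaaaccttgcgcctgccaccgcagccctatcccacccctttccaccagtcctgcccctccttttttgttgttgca
Foxp4, chr17:47924633-47924882, minus strand: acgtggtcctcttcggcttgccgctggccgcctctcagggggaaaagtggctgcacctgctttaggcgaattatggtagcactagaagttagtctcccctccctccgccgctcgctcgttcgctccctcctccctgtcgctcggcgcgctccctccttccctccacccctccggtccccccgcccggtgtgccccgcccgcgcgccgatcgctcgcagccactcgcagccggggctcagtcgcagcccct
Etv5, chr16:22439571-22439820, minus strand: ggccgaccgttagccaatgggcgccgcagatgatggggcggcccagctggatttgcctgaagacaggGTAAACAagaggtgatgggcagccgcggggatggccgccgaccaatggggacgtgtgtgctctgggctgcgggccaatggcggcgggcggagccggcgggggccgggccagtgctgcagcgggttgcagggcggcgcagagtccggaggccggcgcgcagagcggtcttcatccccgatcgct
Foxp1 held TGTTTGC on its own strand at position -167 from the start site, and Etv5 held TGTTTAC on the other strand at -183. In all, 9 windows of 6 members were searched over 300 bases each, and these 2 matched, against 11.2% of 32817 promoter windows in the table. Windows at the further start sites of Foxp1 and Etv5 held no match and are not printed. Foxp2 was also lower in every double-floxed and Foxa2-floxed line, but the RefSeq table had no window for it. No window held the Nkx2-1 type motif CACTTGA (3.06% of promoters) or the ETS motif CCGGAAG (8.86%). A match or its lack describes these letters only and says nothing about binding.

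Id2 (ENSMUSG00000020644, chromosome 12, 25093799 to 25097140, minus strand) is a dominant-negative partner of basic helix-loop-helix factors and a tip marker. In double-floxed organoids it measured 221, 308, 121, 163 and 282 CPM with vehicle and 133, 35.4, 130, 275 and 54.2 CPM with 4-OHT. The 2 low 4-OHT libraries were both from line 1027D, and the groups overlapped. Line means gave a 4-OHT over vehicle ratio of 0.152 in 1027D, 1.06 in 1027B and 1.07 in 1292B, and the fitted change over lines was -0.98 ± 0.56 (adjusted p = 0.378). Without the filter on low counts it passed (-0.98, adjusted p = 0.00114). In the single-floxed organoids the line ratios lay between 0.654 (1552A) and 1.26 (1267B), and neither fitted change passed (-0.34, adjusted p = 0.479, with Foxa1 floxed and 0.15, adjusted p = 0.865, with Foxa2 floxed).

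Sox9 (ENSMUSG00000000567, chromosome 11, 112782224 to 112787760, plus strand) is the HMG-box factor of the distal tip. Its double-floxed vehicle values were 95.5, 79.5, 14.6, 96.9 and 65.2 CPM, and its 4-OHT values 59.1, 12.8, 69.4, 162 and 52 CPM. The lines went in opposite directions: the 4-OHT over vehicle ratio was 4.77 in 1292B, 1.15 in 1027B and 0.448 in 1027D, and the fitted change was 0.02 ± 0.60 (adjusted p = 0.992). With vehicle, Sox9 varied 19.2-fold between lines, with line 1552A lowest and 1267B highest at 144 CPM. Repeat libraries of a line differed by a median of 1.22-fold, and by 4.17-fold at most, in 1552A with 2.90 and 12.1 CPM. In Foxa2-floxed organoids the change was -0.49 ± 0.29 (adjusted p = 0.5), with both lines lower.

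Sox2 (ENSMUSG00000074637, chromosome 3, 34650405 to 34652461, plus strand), the airway counterpart of Sox9, was present in 1 of the 8 lines. Line 1552A had 55.3 and 42.2 CPM with vehicle and 49.2 and 41.6 CPM with 4-OHT, a mean of 47.1 ± 6.46 CPM (SD, n = 4 libraries) from 5359 counts. The other 34 libraries, from 7 lines, held 3 counts in all, in 3 libraries. Sox2 had 0 counts in 31 of 38 libraries, which allows up to 0.0891 to 0.226 CPM per library (3 counts of the total, counting error only). The 4-OHT change in Foxa1-floxed organoids, -0.17 ± 0.33 (adjusted p = 0.889), therefore rests on line 1552A. Sox2 is a single-exon gene inside Sox2ot, a transcript on the same strand with which it shares 0 exonic bases, and Sox2ot averaged 0.665 CPM in 1552A with vehicle and at most 0.0547 CPM in any other line.

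Line 1552A combined the Sox2 RNA with the lowest vehicle Sox9 and the highest vehicle Foxp2, at 57.1 CPM, and Nkx2-1, at 337 CPM, of the 8 lines when the hairpin libraries are left out; line 1027B with shScramble and vehicle averaged 405 CPM of Nkx2-1. Proximal airway genes were split: some were highest there and others were far below the highest line. Scgb1a1, the club cell secretoglobin, had 161 CPM against 2.24 in the next line, and Cyp2f2, a club cell cytochrome, 259 against 138 CPM. The mucin Muc5b had 2080 against 631 CPM and Muc5ac 587 against 407 CPM, while Trp63, the basal cell factor, had 2.63 against 0.386 CPM. On the other side Notch1, a receptor, was lowest of all lines in 1552A, with 13 CPM against 129 in 1292B. The secretoglobin Scgb3a1 had 1.48 against 94.3 CPM in 1267B, Cftr, a chloride channel, 0.908 against 39.1, Spdef, a goblet cell factor, 0.74 against 11.4, and Krt5 0.147 against 2.90 in 1292B. Of 14 proximal airway genes above 1 CPM in some line, 5 were highest and 1 lowest in 1552A, and of 16 Nkx2-1 regulated epithelial genes 9 were highest. In the other gene lists used below, 2 of 15 distal tip genes and 4 of 15 FGF and ERK genes were highest there. So were 1 of 14 BMP and E protein genes, 1 of 14 Wnt genes and 2 of 14 relatives of the 9 factors. The share of all genes highest in 1552A was not computed, so the counts have no background to be read against. These are levels of 1 tumour, seen in 2 vehicle libraries, and no test was made of a line picked for its Sox2.

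**Figure D3:**
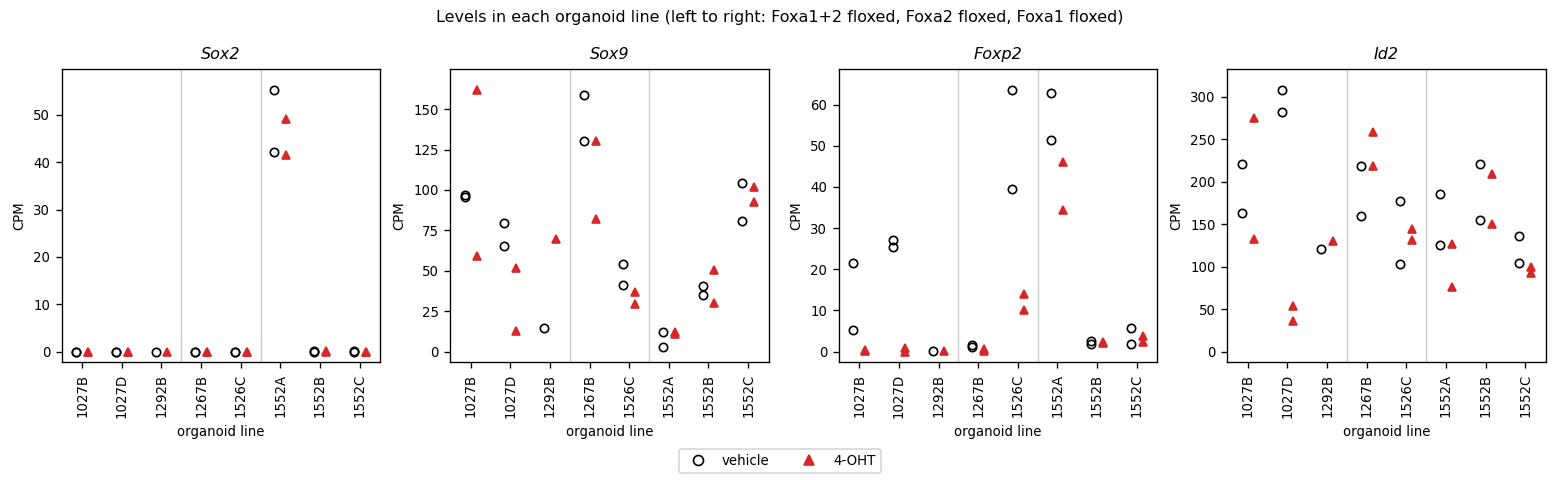
CPM of Sox2, Sox9, Foxp2 and Id2 in each line (linear axis; open circles vehicle, red triangles 4-OHT; hairpin libraries not drawn). Sox2 is found in line 1552A, where Sox9 is lowest; Id2 is lower with 4-OHT in 1027D and Sox9 higher in 1292B.

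**Figure D4:**
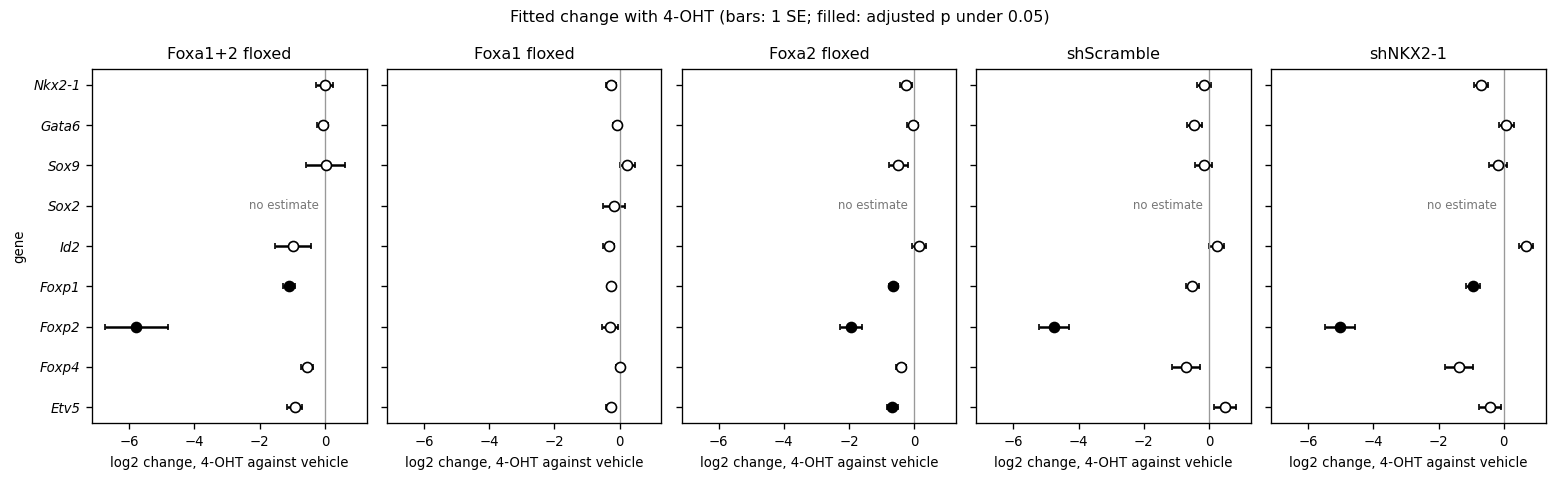
Fitted log2 change with 4-OHT against vehicle for the 9 genes in 5 comparisons, with bars of 1 SE; filled points have an adjusted p under 0.05. Foxp2 lies farthest to the left except in the Foxa1-floxed organoids, where no point is filled.

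The genes these factors act with were followed through gene lists. The Nkx2-1 regulated epithelial genes had 6 of 16 tested members lower and 0 higher in double-floxed organoids, with a median log2 change of -1.48 against 0.02 over all genes, of which 3.90% were called. The log2 changes of genes left with few counts depend on the fit's small prior count. Called were Cxcl15, a lung chemokine (-7.17), Cebpa (-1.55), Sftpa1 (-7.90) and Sftpb (-1.84), which encode surfactant proteins, Lamp3 (-6.98) and Selenbp1 (-2.30). In Foxa2-floxed organoids 4 of 17 fell, Lpcat1 (-1.24), Cxcl15 (-2.47), Sftpc (-2.31) and Dram1 (-0.85), where 3.43% of all genes were called, and the list median was -0.92 against -0.01. In Foxa1-floxed organoids 0 of 17 were called, where 0.0118% of all genes were called, at a median of -0.51 against 0.01. Nkx2-1 itself was not called in these 3 comparisons, as given above.

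In the other lists, a single call among about 15 genes is near the 3.90% of all genes called in double-floxed and the 3.43% in Foxa2-floxed organoids. Single calls are therefore given for the genes and not for the lists. Around Etv5, the FGF and ERK list had 1 of 15 genes lower in double-floxed organoids, the receptor Fgfr3 (-2.95 ± 0.22, adjusted p = 0.000876), and a list median of -0.03. The feedback genes Spry2, Spry4, Dusp4 and Dusp6, which ERK signalling induces, were not called there. In Foxa2-floxed organoids 1 of 15 rose, the related ETS factor Etv1 (1.64 ± 0.36, adjusted p = 0.0173). Of 15 other distal tip genes 0 were called in double-floxed organoids (median -0.31). In Foxa2-floxed organoids 2 of these 15 fell, the ligands Shh (-2.33) and Bmp4 (-0.87), and 1 rose, Wnt7b (adjusted p = 0.046), where 3.43% of all genes were called. The 14 tested genes of the BMP and E protein list around Id2 had 0 calls in double-floxed organoids and 1 in Foxa2-floxed ones, Bmp4. Of the 14 Wnt genes, 0 and 1 were called, the latter being Wnt7b.

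The proximal airway genes, on the Sox2 side, had 2 of 14 lower and 1 higher in double-floxed organoids, where 3.90% of all genes were called. The goblet cell mucins Muc5b (-7.27 ± 0.87, adjusted p = 0.00599) and Muc5ac (-4.42 ± 0.79, adjusted p = 0.0224) fell, and Foxj1, the ciliated cell factor, rose (3.23 ± 0.67, adjusted p = 0.0364). Mean Foxj1 was not above 1 CPM in any line with vehicle, so its rise started from a low level. In Foxa2-floxed organoids 1 of 15 rose, the basal keratin Krt5 (2.16), where 3.43% of all genes were called. With vehicle, Krt5 averaged 0 CPM in line 1267B and at most 2.9 CPM in any line. Sox2 was at 0 in the double-floxed and Foxa2-floxed lines throughout.

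The hairpin experiment asked what less Nkx2-1 does in line 1027B with and without 4-OHT. Nkx2-1 itself measured 405 and 406 CPM with shScramble and vehicle and 329 and 264 CPM with shNKX2-1 and vehicle. With 4-OHT it measured 335 and 382 CPM with shScramble and 172 and 190 CPM with shNKX2-1. In both arms the 4-OHT libraries were below the vehicle libraries. The 4-OHT change was -0.15 ± 0.22 with shScramble (edgeR quasi-likelihood test, adjusted p = 0.83) and -0.70 ± 0.22 with shNKX2-1 (unadjusted p = 0.0121, adjusted p = 0.105). With DESeq2 the shNKX2-1 change passed (-0.70, adjusted p = 0.0403). The shNKX2-1 libraries were below the shScramble libraries under either treatment. The hairpin changes were -0.44 ± 0.22 with vehicle (adjusted p = 0.755) and -0.98 ± 0.22 with 4-OHT (unadjusted p = 0.0019, adjusted p = 0.0763), a 1.35-fold and a 1.97-fold lower level. The latter passed with DESeq2 (-0.97, adjusted p = 0.0032) and without either shNKX2-1 4-OHT library (adjusted p = 0.0111 and 0.0422). None of the 8 tested members was called between hairpins by edgeR's quasi-likelihood test, where 0.235% of 14465 genes were called with vehicle and 1.58% with 4-OHT. At an unadjusted p under 0.05 there were 0 members with vehicle and 2 with 4-OHT, and DESeq2 called 0 and 1. The 2 were Nkx2-1 and Etv5 (-1.01 ± 0.34, unadjusted p = 0.0169, adjusted p = 0.233 by the edgeR test). Etv5 passed that test with no filter on low counts (adjusted p = 0.0203).

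Between the hairpins with 4-OHT, 5 of 16 genes known to be regulated by Nkx2-1 were lower with shNKX2-1 and 0 higher, and 11 did not pass, where 1.58% of all genes were called. One of the shNKX2-1 libraries in this comparison is that with 11.7% mitochondrial counts, whose part in it was not tested. The genes called were Napsa (-6.13 ± 0.62, adjusted p = 0.00755), Sftpb (-3.80), Sftpc (-6.35), Ager (-5.47) and Hopx (-2.26). The tip gene Cpm was lower (-2.44) and the Wnt receptor Fzd5 higher (1.45). With vehicle 0 of the 16 were called, and 1 airway gene, the secretoglobin Scgb3a1, was higher with shNKX2-1 (8.69 ± 0.78, adjusted p = 0.0156).

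Foxp2 fell with 4-OHT in both hairpin arms of line 1027B, in libraries separate from those above. It went from 15.4 and 13.9 CPM to 0.457 and 0.606 CPM with shScramble and from 24.5 and 24.8 CPM to 1.09 and 0.376 CPM with shNKX2-1, without overlap. The changes were -4.74 ± 0.46 (adjusted p = 0.0018) and -5.02 ± 0.45 (adjusted p = 0.0013). Of the 8 members tested, Foxp2 alone was called with shScramble and Foxp2 and Foxp1 with shNKX2-1, where 4.33% and 6.35% of all genes were called. Foxp1 went from 49.8 and 48.7 to 34.3 and 33.8 CPM with shScramble (-0.51 ± 0.21, adjusted p = 0.291) and from 52.9 and 52.6 to 25 and 29.2 CPM with shNKX2-1 (-0.95 ± 0.21, adjusted p = 0.0356). In both arms the 4-OHT libraries were below the vehicle libraries, and the shNKX2-1 call was lost when any shScramble library or either shNKX2-1 vehicle library was left out (adjusted p from 0.0714 to 0.197). In the same line, the double-floxed table gave Foxp1 line means of 99.9 CPM with vehicle and 50.6 with 4-OHT.

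Foxp4 in the hairpin experiment had 262 and 272 CPM with shScramble and vehicle against 164 and 156 CPM with 4-OHT. With shNKX2-1 it had 312 and 248 CPM against 161 and 53 CPM, the lowest value being that of the library with 11.7% mitochondrial counts. The shNKX2-1 change was -1.38 ± 0.43 (adjusted p = 0.105), without that library it was -0.81 (adjusted p = 0.0451) and without the other -2.39 (adjusted p = 0.000474). It also passed with DESeq2 (adjusted p = 0.022) and with no filter on low counts (adjusted p = 8.13e-05), and whether RNA quality played a role was not tested. The shScramble change, -0.71 ± 0.43 (adjusted p = 0.518), became -0.74 without either shNKX2-1 4-OHT library (adjusted p = 0.0207 and 0.0208).

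In the shScramble arm Etv5 had 119 and 147 CPM with vehicle and 171 and 199 CPM with 4-OHT, above both vehicle values (0.49 ± 0.34, adjusted p = 0.582). In the same line of the double-floxed table all 4-OHT libraries had been below the vehicle ones, at a line ratio of 0.406. With shNKX2-1 it had 92.1 and 156 CPM against 117 and 66.6 CPM (-0.43 ± 0.34, adjusted p = 0.44). Id2 had 122 and 116 CPM against 143 and 131 CPM with shScramble, and 139 and 101 CPM against 199 and 181 CPM with shNKX2-1 (0.68 ± 0.22, adjusted p = 0.123). Gata6, which lies on chromosome 18, had 160 and 158 against 116 and 111 CPM with shScramble (-0.46 ± 0.23, adjusted p = 0.398), and 128 and 103 against 105 and 136 CPM with shNKX2-1. Sox9 lay between 49.5 and 93.2 CPM in all 8 libraries, and Sox2 was at 0.

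Whether the hairpin altered the response to 4-OHT was tested by the interaction term, in which 0% of genes, and 0 of 8 members, were called by edgeR's quasi-likelihood test. There were 782 genes and 0 members at an unadjusted p under 0.05, and DESeq2 called 0 members. Etv5 had the largest interaction of the members, -0.92 ± 0.48 (unadjusted p = 0.0873). Without the first shNKX2-1 4-OHT library, which leaves in that group only the library with 11.7% mitochondrial counts, 3 members were called: Foxp4 (-1.66), Etv5 (-1.36) and Gata6 (0.74).

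**Figure D5:**
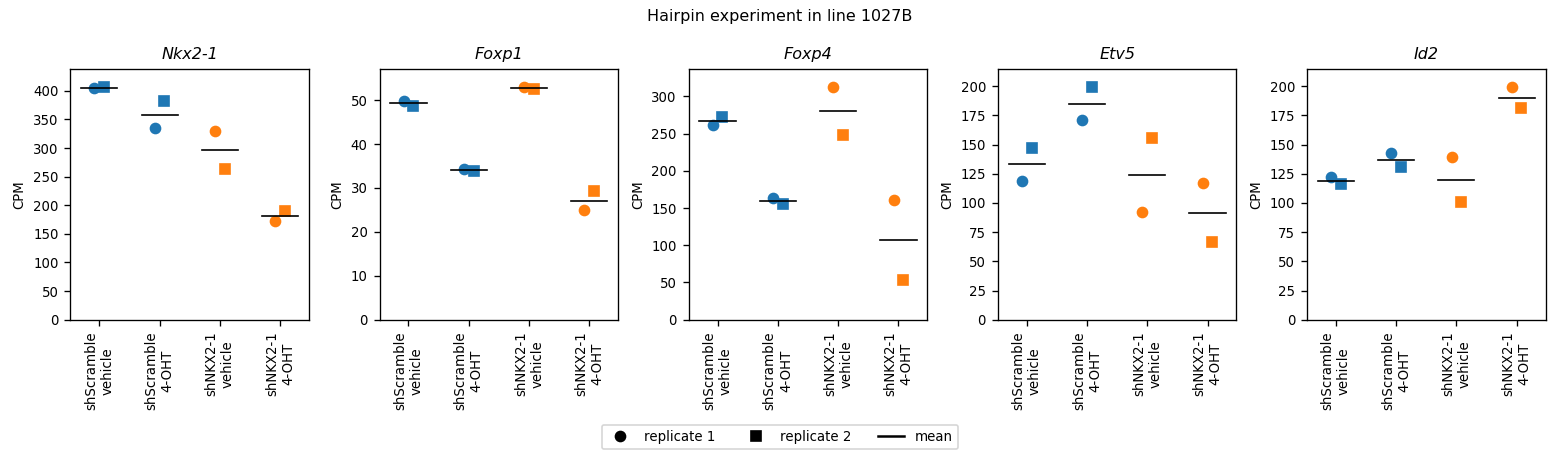
CPM of Nkx2-1, Foxp1, Foxp4, Etv5 and Id2 in the 4 hairpin groups of line 1027B (linear axis from 0; circles and squares are the 2 libraries, bars their mean). Nkx2-1 is lower with shNKX2-1 under both treatments, and the 2 shNKX2-1 4-OHT libraries lie far apart for Foxp4.

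Likeness of pattern was measured as Pearson's r of log2 CPM over 20 means, 16 of line by treatment and 4 of hairpin groups, among 10473 genes. The means share lines and a common scaling, so r is a description only. Nkx2-1 was most like Zer1 (0.845), Zfp626 (0.826) and Gm47720 (0.825), and Gata6 most like Rsu1 (0.839), Eif4ebp2 (0.819) and Hdac1 (0.810). For Sox9 these were Ifnar1 (0.809), Cdh16 and Fam168b, and for Id2 Alcam (0.709), Dock11 and A130010J15Rik, the weakest likeness of the 9. Foxp4 had the closest, Mtcl1 (0.931), Exosc4 (0.888) and Spata5l1 (0.885). Foxp1 was most like Clpb (0.816), Mthfd1l and Cfap20, Foxp2 most like Ddi2 (0.869), Epha7 and Ggcx, and Etv5 most like Rabl6 (0.863), Lman1 and Uhrf1bp1. The genes nearest Sox2, Rpp14 (0.870), Grsf1 and Pdhb, rest on line 1552A. Among the members themselves, Foxp2 and Foxp4 were most alike (0.696), and Sox9 and Sox2 most opposed (-0.744). The value for Sox9 and Sox2 also rests on line 1552A, which held nearly all Sox2 counts.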

How the data were processed

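Read counts per Ensembl gene ID were deposited for 38 libraries in 3 tables, without normalisation; per the submitters' processing notes GRCm38, STAR 2.7.6a, featureCounts 1.5.1 and DESeq2 were used, with no role given. RNA came from a column kit and libraries from a directional kit, per the labels' protocols. The sources used here do not state the strand setting, the handling of multiply mapped reads or the annotation release. Symbols came from GENCODE M21, which named 99.5% (double-floxed table) and 99.4% (other tables) of IDs.

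Tests used the quasi-likelihood F test of edgeR 4.0.16 under R 4.3.3, after filterByExpr and TMM scaling, with p-values adjusted by Benjamini-Hochberg over all genes of the table, at a threshold of 0.05. Organoid line was the replicate block in the double-floxed fit and in the single-floxed fit, which held both genotypes. The lines pair the samples per the labels, and same-line vehicle and 4-OHT libraries correlated with r from 0.14 to 0.847 after centring. The hairpin fit had 4 group means. Effects of genotypes were compared on counts summed per line and treatment. CPM used TMM factors over all 38 libraries, with a prior count of 2 for log2 CPM in likeness. A count of 0 allows up to 3 counts, counting error only. The fits were tested on simulated data.

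The members and gene lists were chosen with earlier results of these data known. Named were the 9 members, Foxa1, Foxa2, called list genes (up to 6 per list and comparison) and the 3 genes most like each member. Alternatives were RLE scaling, DESeq2 1.42.0, no filter, other blocks, summed counts, a genotype fitted alone and leaving out each library or line.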

Additional observations from a re-analysis of the deposited data

Results flagged for a closer look

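In 3 cases the change with 4-OHT differed between genotypes by a test of the difference itself, on counts summed per line and treatment (edgeR's quasi-likelihood test). Double-floxed and Foxa1-floxed libraries share no title number and no count table. For the differences from Foxa1-floxed lines, genotype and run therefore cannot be told apart. Foxp2 fell further in double-floxed than in Foxa1-floxed lines, with a difference of -5.42 on the log2 scale (adjusted p = 0.00218), and it stayed called without any one of the 8 lines. Against Foxa2-floxed lines the Foxp2 difference was -3.84 (adjusted p = 0.0397), with 3 double-floxed lines at ratios of 0.0142, 0.0152 and 0.265 and 2 Foxa2-floxed lines at 0.302 and 0.233. The double-floxed line at 0.265, 1292B, had 4 Foxp2 counts with vehicle. For Foxp1 the difference from Foxa1-floxed lines was -0.94 (adjusted p = 0.0453), with line ratios of 0.345 to 0.507 against 0.785 to 0.877. No library stood far outside its group in the 54 groups of 4 to 6 libraries that were checked, where chance alone gives about 2.7. That figure includes double-floxed and Foxa2-floxed groups with Sox2 at 0 in every library, where none could stand out. Each group also holds libraries of 2 or 3 lines, so a difference between lines can hide an odd library.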

How the results depend on the processing

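The number of members called, with the number of genes called in parentheses, moved in these settings, and the cause was not tested. In double-floxed organoids (2 members, 592 genes) it was 4 (2391) with no filter on low counts, 1 (82) with no replicate block, and 4 (1783) with a replicate block of line and run; DESeq2 called 3 members there, and 3 against 2 for the double-floxed against the Foxa1-floxed effect. In Foxa2-floxed organoids (3 members, 580 genes) summing the counts of each line gave 1 (73), fitting the genotype alone 1 (133), and no replicate block 0 (5). With shNKX2-1 and 4-OHT against vehicle (2) DESeq2 called 4 (1786). Between hairpins with 4-OHT (0) DESeq2 called 1 (704), and 2 (1058) were called without the filter.

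Leaving out 1 library or line at a time gave 0 to 2 members in double-floxed organoids, 0 to 3 in Foxa2-floxed ones, 1 to 3 with shScramble, 1 to 5 with shNKX2-1, 0 to 3 between hairpins with 4-OHT and 0 to 3 for the interaction. The highest hairpin counts came without the first shNKX2-1 4-OHT library (for shScramble, without either), where a lone library is assumed to vary like the other groups. It gave 1 for the double-floxed against the Foxa1-floxed effect in all 8 cases (Foxp2 each time) and 0 to 1 against the Foxa2-floxed effect. Counts stayed at 0 in Foxa1-floxed organoids, between hairpins with vehicle and between the single-floxed effects. Of 1204 values of single genes under alternatives, 47 lost a call, 28 gained one and none of the called values changed sign; 77 values called in neither setting did, and were not counted as reversals. Without line 1027D no gene was called in double-floxed organoids, without 1027B 111 were and without 1292B 253. No paired analysis was possible in the hairpin experiment because its labels carry no replicate numbers.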

Other observations

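Relatives of the 9 factors were read as a further list, of which 15 were tested in each genotype. In double-floxed organoids 1 of 15 rose, near the 3.90% of all genes called: Gata3 (2.85 ± 0.61, adjusted p = 0.04, edgeR's quasi-likelihood test), a zinc-finger factor of the same family as Gata6. In Foxa2-floxed organoids, where 3.43% of all genes were called, 3 rose, Gata3 (2.58 ± 0.46), Etv1 (1.64 ± 0.36) and Sox7 (2.72 ± 0.53), and 2 fell, Sox5 (-2.05 ± 0.42) and Sox12 (-0.94 ± 0.22). All but Sox12 were low with vehicle. Gata3 averaged 0.891 and Etv1 1.82 CPM in those Foxa2-floxed libraries. Sox5 averaged at most 1.36 CPM in any vehicle line, and Sox7 was not above 1 CPM in any. In line 1027B with hairpins, where 4.33% of all genes were called with shScramble and 6.35% with shNKX2-1, Etv1 rose with 4-OHT in both arms (1.34 and 2.85), Gata3 rose (2.41) and Gata4 fell (-2.31) with shNKX2-1, and with shNKX2-1 the tip genes Shh (-7.00), Cpm (-2.84), Mycn (-2.39), Bmp4 (-1.19) and Tgfb2 (-0.99) fell. The shScramble arm had Shh (-5.30), Bmp4 (-2.04) and Cpm (-1.51) lower. In that arm the Wnt pathway receptors Fzd5 (-2.34) and Lgr4 (-1.04) fell too.

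The following values were chosen after they were seen. Line 1027B gave vehicle means of 212 CPM for Nkx2-1, 99.9 for Foxp1 and 381 for Etv5 in the double-floxed table, and of 405, 49.2 and 133 CPM with shScramble and vehicle in the hairpin table. The tables differ in the number of the library titles, hairpin and depth, which cannot be told apart here. Vehicle Foxp1 was 46.8 to 62.5 CPM in the 3 Foxa1-floxed lines and 77.8 to 99.9 CPM in the other 5, a difference of lines that was not tested. Id2 had a 4-OHT over vehicle ratio of 0.152 in line 1027D and of 1.06 and 1.07 in the other double-floxed lines, and Sox9 was higher in 1292B (4.77) while it was lower in 1027D (0.448); whether the lines differ in response was not tested.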
